A study of Mus musculus with 4 samples.

Results

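Type 2 conventional dendritic cells (cDC2) of MC38 tumours were taken as the barcodes that held at least 1 UMI of Flt3 and at least 1 UMI of Cd209a and no UMI of Xcr1, Clec9a, Ccr7, Fcgr1, Siglech, Cd3d, Cd3e or Cd3g. A UMI is a molecular tag that marks 1 captured mRNA molecule. Barcodes under 200 genes, or with mitochondrial UMIs above 20%, had been set aside first, and the rule found 50 cells among the 44184 barcodes kept. WT 1 gave 22 of them, WT 2 gave 13, KO 1 gave 10 and KO 2 gave 5. The cells were chosen by the measured UMIs of these 10 genes, whose levels are therefore descriptions here and carry no test.

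Conventional dendritic cells take up antigen in tissues and present it to T cells. They depend on the cytokine receptor Flt3, and the type 2 lineage presents mainly on MHC class II to CD4 T cells, while the Xcr1-positive type 1 lineage is known for cross-presentation to CD8 T cells. In mice, cDC2 carry C-type lectin receptors such as Cd209a and Mgl2, and some of them secrete Ccl17, a chemokine that draws Ccr4-positive T cells. Once they mature, dendritic cells switch on Ccr7, which guides them to lymph nodes, and cells with Ccr7 were outside the rule.

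The study profiled CD45-positive cells from tumours of the mouse colon adenocarcinoma line MC38 by single-cell RNA sequencing with a 10x 3' kit. The hosts were wild-type mice (WT, libraries 1 and 2) or knockout mice (KO, libraries 1 and 2). In all 4 libraries the tissue was dissociated enzymatically and the leukocytes were enriched on CD45 beads. The series title asks about antigen presentation by macrophages. The sources used here did not give the age, sex or strain of the mice or the animals per library. The p-values therefore measure the spread between libraries only, and that spread may be a technical one.

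The libraries kept 8664, 8815, 17207 and 9498 barcodes in WT 1, WT 2, KO 1 and KO 2, with median depths of 9905.5, 12133, 6052 and 8308 UMIs. Pairs of libraries shared 22 to 51 barcodes, no cDC2 barcode recurred among the cDC2 of another library, and 2 cDC2 had a barcode shared between WT 1 and KO 2. Doublets were not removed, because Scrublet called too few barcodes to be used. 1 cDC2, in WT 2, stood among the barcodes with the highest doublet scores.

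The median UMIs of the cDC2 were 10601, 8405, 7340 and 16427 in WT 1, WT 2, KO 1 and KO 2, above the median of the whole library except in WT 2, with a range of 1052 to 24908 over the 50 cells. The summed counts tested below came to 231008, 126756, 75524 and 67366 UMIs. The deepest cell held 9.02% of the sum in WT 1 and 32.1% in KO 2, so single cells weigh most in KO 2.

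Most cells met the rule with few UMIs of Flt3. Flt3 stood at 1 UMI in 27 cells, at 2 UMIs in 13 and at 3 or more in 10, and its highest count was 5. Cd209a stood at 1 UMI in 11 cells, at 2 in 5 and at 3 or more in 34, with a highest count of 51. In 8 cells both genes stood at 1 UMI. Summed over cells, Flt3 came to 195, 158, 225 and 89.1 UMIs per 1000000 UMIs of the summed cells (CPM) and Cd209a to 649, 1223, 967 and 297 CPM in WT 1, WT 2, KO 1 and KO 2. Both genes were lowest in KO 2.

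Barcodes that missed the rule by 1 condition also held Mgl2 in most libraries. Those with Cd209a but no Flt3 UMI numbered 53, 46, 30 and 19 in the same order and held 1157, 1323, 762 and 711 CPM of Mgl2. Those with Flt3 but no Cd209a UMI numbered 26, 17, 19 and 14, with 1157, 794, 125 and 966 CPM of Mgl2. Those kept out by Fcgr1 alone, the gene of the high-affinity IgG receptor of macrophages and monocytes, numbered 13, 13, 7 and 3. They held 2005, 1197, 128 and 1207 CPM of Mgl2 and 11106, 12270, 7448 and 9253 CPM of H2-Ab1. Siglech, a receptor of plasmacytoid dendritic cells, kept out 4, 5, 1 and 2 barcodes, and the cDC1 genes, Ccr7 and the Cd3 genes kept out 3 or fewer per library.

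Of 22 genes listed for cDC2 identity, the pooled level was higher in these cells than in cDC1 for 15 and lower for 5 (Cd1d1, Cd24a, Clec12a, Notch2 and Zbtb46). Against macrophages it was higher for 14 and lower for 8 (Cd1d1, Clec12a, Clec4a2, Clec4a4, Esam, Itgam, Klf4 and Sirpa). For 12 genes every cDC2 library lay above every cDC1 library, and for 12 above every macrophage library. Mgl2, a galactose-binding lectin, reached 1130, 781, 728 and 2049 CPM in WT 1, WT 2, KO 1 and KO 2. Over all libraries together it stood at 178 CPM in cDC1 (54 cells with Flt3 and Xcr1 or Clec9a) and at 129 CPM in macrophages (14424 cells with Fcgr1 and Adgre1). A Mgl2 UMI was found in 34 of the 50 cells and in 2.91% of T cells (2988 cells with at least 2 Cd3 UMIs), at median depths of 9526 and 3062 UMIs. With each cell thinned to 3000 UMIs the shares were 63.0% of 46 cDC2 and 2.81% of 1531 T cells. The lowest cDC2 library for Mgl2 was above every cDC1 and macrophage library.

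Clec10a, Cd209d and Kmo were also higher than in macrophages. Clec10a, the paralogue of Mgl2, had 290, 536, 530 and 178 CPM against 59.7 in cDC1 and 22.5 in macrophages. Cd209d, a lectin encoded beside Cd209a, had 255, 189, 410 and 29.7 CPM and was at 0 in cDC1. Reads can be split between such close paralogues, so the values of single Cd209 and Mgl genes are uncertain to that extent. Kmo, an enzyme of tryptophan breakdown, had 164, 189, 225 and 119 CPM against 1.67 in macrophages. Zbtb46, a transcription factor of the conventional dendritic lineage, had 43.3, 63.1, 79.4 and 14.8 CPM against 0.380 in macrophages.

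The transcription factors separated the cells from cDC1. Irf4, needed for cDC2 function, had a UMI in 22 of the 50 cells and 47.6, 55.2, 159 and 59.4 CPM, while the cDC1 sum held none. Irf8, the factor of cDC1, had 73.6, 47.3, 199 and 29.7 CPM against 1991 CPM in cDC1. Of the 22 genes listed for cDC2 identity, 20 had a UMI, and Esam and Clec4a4, which mark the Notch2-dependent cDC2 of spleen and gut, were at 0. The maturation genes Fscn1 and Cacnb3 together gave 1 UMI, against 2347 and 655 CPM in the Ccr7-positive dendritic cells (136 cells gated on Flt3, Ccr7 and Fscn1, so that Fscn1 is high there by choice).

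**Figure D1:**
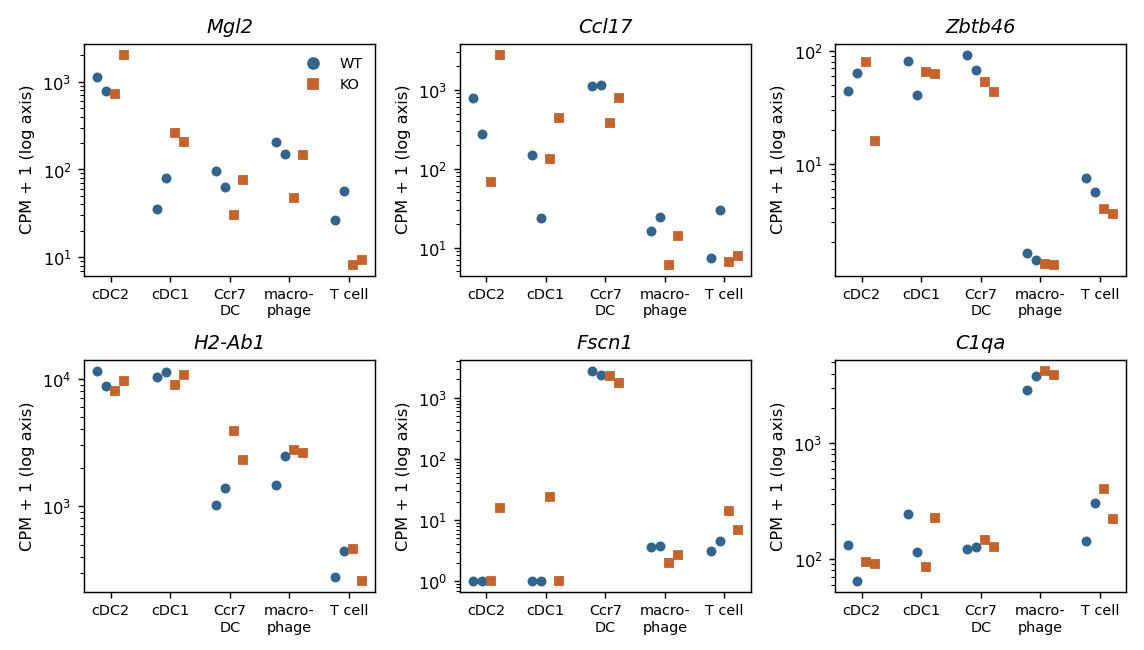
CPM plus 1 on a log axis for 6 genes in 5 gated populations, 1 point per library, with WT as blue circles and KO as orange squares. Mgl2 was highest in cDC2, where it stood between 728 and 2049 CPM, Fscn1 was high in Ccr7-positive dendritic cells and C1qa in macrophages.

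The summed level of macrophage genes overlapped that in T cells and was far under that in macrophages. The 14 macrophage markers summed to 986 to 1509 CPM over the cDC2 libraries, to 1176 to 3671 CPM in T cells and to 21218 to 34086 CPM in macrophages, and 13 of the 14 had a UMI in cDC2. Mertk, a receptor for dying cells, was at 0. The complement gene C1qa had a UMI in 48% of the cDC2 and in 56.3% of T cells, and after thinning in 21.7% and 43.6%. Of 12 T cell markers 7 had a UMI, and they summed to 99.6 and 63.1 CPM in WT and to 252 and 148 CPM in KO, higher in both KO libraries, with Cd4 and Trac at 0. Of 9 B cell markers 2 had a UMI (44.5 to 86.6 CPM), with Cd79a at 0. The 10 markers of NK and cytotoxic cells summed to 364, 371, 755 and 356 CPM in WT 1, WT 2, KO 1 and KO 2. Of these sums Klrd1 alone gave 364, 355, 622 and 341 CPM, and Ncr1, Klrb1c, Gzma, Gzmb, Prf1 and Eomes were at 0. The 10 monocyte markers summed to 1164 to 2105 CPM, against 315 to 1413 CPM in cDC1 and 2593 to 6001 CPM in macrophages. The 10 markers of monocyte-derived dendritic cells summed to 853 to 1160 CPM. Every cDC2 library was above every library of cDC1 (235 to 597 CPM) and of Ccr7-positive dendritic cells (210 to 335 CPM). The range overlapped that in T cells (970 to 1803 CPM) and was below that in macrophages (4166 to 5272 CPM). Whether some of the cells came from monocytes was not tested. The 9 markers of plasmacytoid dendritic cells summed to 822, 521, 1602 and 312 CPM, highest in KO 1. The part of these markers in the results below was not tested.

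The 50 cells were not uniform. The share of a cell's UMIs from Cd74, H2-Aa, H2-Ab1 and H2-Eb1, the invariant chain and the classical MHC class II chains, ran from 0.225% to 8.31%, with a median of 5.13%. It left a gap: 7 cells lay at 0.669% or lower and the next cell at 2.10%. These 7 cells were 3 of 22 in WT 1, 0 of 13 in WT 2, 3 of 10 in KO 1 and 1 of 5 in KO 2. The threshold of 1% between them was chosen after the values had been seen.

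The low cells differed among themselves in what they held. The fifth cell of WT 1, numbered in file order, had 19 UMIs of C1qa and 23 of the macrophage and monocyte gene Fn1 in 3437 UMIs. The second cell of WT 1 had 16 UMIs of Arg1 and 10 of Fn1. The fourth cell of WT 1 had 12 UMIs of Runx2 and 16 of Bst2, both also genes of plasmacytoid dendritic cells. It had 8 of the monocyte gene Ly6c2 and 1 of Tcf4, the factor of the plasmacytoid lineage. The tenth cell of KO 1 had 13 UMIs of Tcf4, 14 of Bst2 and 16 of Ly6c2. Tcf4 was not limited to the low cells. Cells 15 and 22 of WT 1 had 11 and 15 UMIs of it, at MHC class II shares of 2.12% and 4.37%. The fourth cell of KO 1 had 86 UMIs of Cxcl10 and 36 of Cxcl9, chemokines induced by interferon gamma, with 4 of H2-Ab1.

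**Figure D2:**
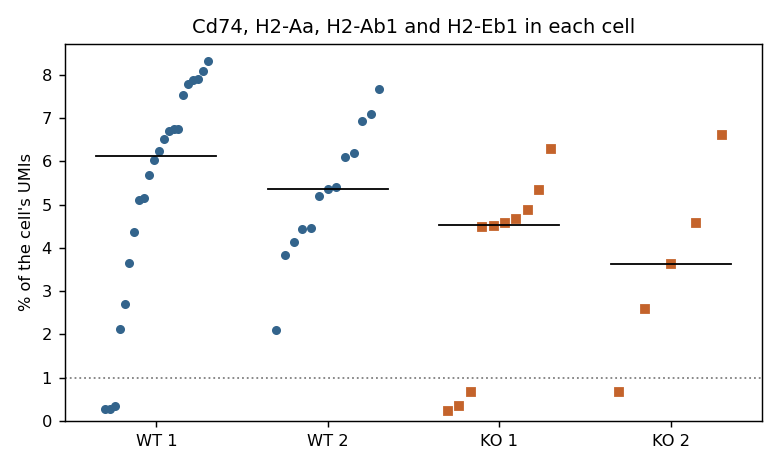
Share of each cell's UMIs from Cd74, H2-Aa, H2-Ab1 and H2-Eb1 in percent, by library, with 1 point per cell, a black line at the median and a dotted line at 1%. The medians were 6.13%, 5.36%, 4.53% and 3.62%, and 7 cells lay under the dotted line.

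Several other genes varied from cell to cell. At least 10 UMIs of Mgl2 were found in 20 cells and at least 10 UMIs of Il1b, the gene of the cytokine interleukin-1 beta, also in 20, and 15 cells had both. At least 5 UMIs of Plac8 were found in 16 cells, of which 2 were among the 20 cells with Mgl2 and 4 among the 20 with Il1b. Depth differs between these cells, so the counts describe them only. Mki67, a marker of cycling, had a UMI in 11 cells, and at least 50 UMIs of 20 cell cycle genes were found in 3, 2, 0 and 3 cells of WT 1, WT 2, KO 1 and KO 2.

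**Figure D3:**
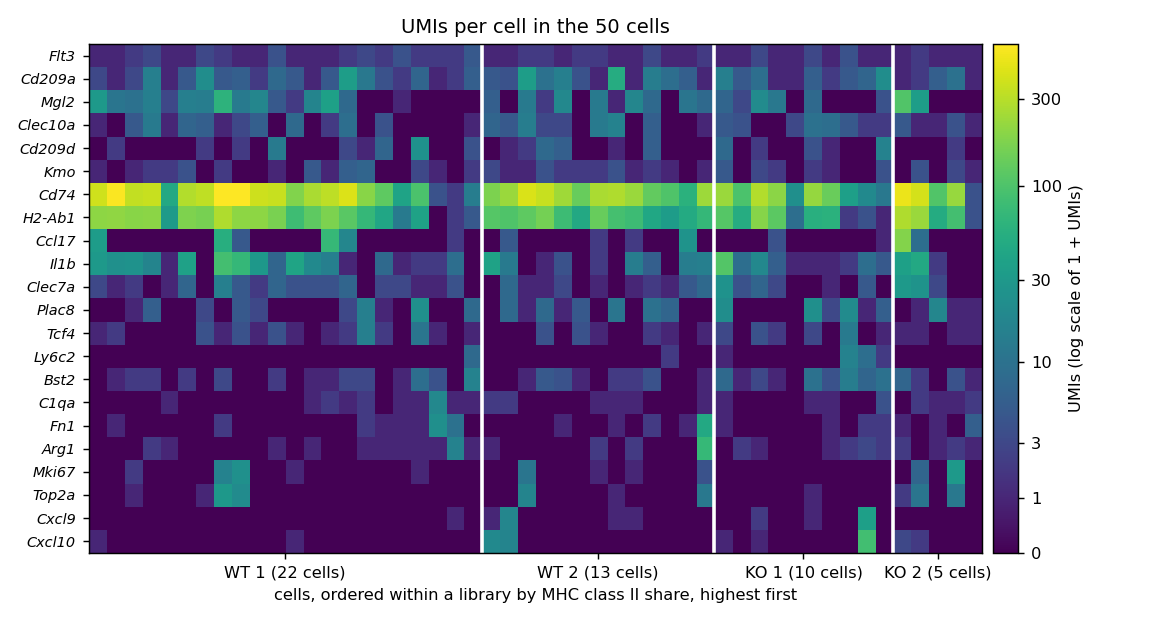
UMIs per cell for 22 genes in the 50 cells, with colour on a log scale of 1 plus UMIs, cells ordered within each library by their MHC class II share. Cd74 and H2-Ab1 were high in most cells, while Ccl17, Ly6c2, Mki67 and Cxcl10 came from a few cells each, with up to 180 UMIs of Ccl17 in 1 cell of KO 2.

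Ccl17 came from a minority of the cells. Its sums were 792, 276, 66.2 and 2806 CPM in WT 1, WT 2, KO 1 and KO 2, and a UMI was found in 14 of the 50 cells and in 1.97% of T cells. Ccl17 was not particular to cDC2. Ccr7-positive dendritic cells held 1114, 1148, 381 and 786 CPM in the same order, above cDC2 in all libraries but KO 2. In cDC1 it had 149, 22.7, 132 and 438 CPM, above cDC2 in KO 1 only. The 5 cDC2 with most Ccl17 held 88.3% of its UMIs in cDC2, and 1 cell held 180 of the 189 UMIs of KO 2. Of the 6 cells with at least 10 UMIs of Ccl17, 5 also had at least 10 of Mgl2. The KO libraries were the lowest and the highest, so the groups overlapped. The log2 change of KO against WT was 1.38 ± 2.13 (SE, n = 2 libraries per group), and the adjusted p was 0.995 (edgeR, quasi-likelihood, Benjamini-Hochberg over all genes tested). Without KO 2 it was -3.14 and without KO 1 it was 2.29, so that the direction depended on which KO library was used. Such fits have 1 library in an arm, which is assumed to vary like the other group, here and wherever a library is left out.

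Among other secreted signals, Il1b was found in most cells, while Ccl22 and several cytokines were sparse or at 0. Ccl22, the second Ccr4 ligand, had a UMI in 4 of the 50 cells, against 2073 CPM in Ccr7-positive dendritic cells. Il12b, Il6, Il10 and Il12a were at 0 in the cDC2 of all 4 libraries. Il1b had a UMI in 41 cells and 1848, 852, 2119 and 1277 CPM in WT 1, WT 2, KO 1 and KO 2, with 29.7% of T cells positive after thinning against 71.7% of cDC2. Cxcl10 had 8.66, 292, 1165 and 74.2 CPM, and 1 cell held 97.7% of the Cxcl10 UMIs of KO 1. Co-stimulatory Cd86 had 139, 174, 291 and 223 CPM, with both KO libraries above both WT libraries, as for 18.2% of all genes tested. Its log2 change was 0.71 ± 0.42 (SE, n = 2 libraries per group), with an adjusted p of 0.994 in edgeR. Cd80, Cd40 and Cd274, the gene of PD-L1, had UMIs in 11, 15 and 24 cells and were under the low-count filter, as were Irf4, Ccl22 and Il12b.

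The cDC2 made up a smaller share of the barcodes in both KO libraries, but with 2 libraries per group the smallest p an exact test can give is 0.333. They were 0.254% (95% exact Clopper-Pearson interval 0.159% to 0.384%) of kept barcodes in WT 1 and 0.147% (0.0785% to 0.252%) in WT 2. They were 0.0581% (0.0279% to 0.107%) in KO 1 and 0.0526% (0.0171% to 0.123%) in KO 2. The KO libraries were both lower than the WT libraries. The means were 0.201% ± 0.0753 in WT and 0.0554% ± 0.00387 in KO (SD, n = 2), a 3.62-fold difference with a two-sided exact permutation p of 0.333. These intervals cover counting error only.

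The rule counts UMIs, and the median depth of KO 1 was the lowest. With every barcode thinned to 3000 UMIs and shallower ones left out, 10, 5, 3 and 3 cells met the rule in WT 1, WT 2, KO 1 and KO 2. Their shares were 0.146%, 0.0656%, 0.0254% and 0.0434%, and the order of the groups held with a ratio of 3.07 and an exact permutation p of 0.333. The thinned ratio rests on 3 cells in each KO library, and it was 1.91 without WT 1.

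The cDC1 share did not separate the genotypes. Shares of cDC1 were 0.115%, 0.147%, 0.116% and 0.116%, with overlapping groups and an exact permutation p of 1. The cDC2 were 68.8%, 50%, 33.3% and 31.2% of cDC1 and cDC2 together, with KO libraries below WT libraries at an exact permutation p of 0.333. Ccr7-positive dendritic cells were 0.496%, 0.476%, 0.174% and 0.221% of barcodes, also lower in both KO libraries. T cells were 2.54%, 3.87%, 9.62% and 8.13%, higher in both, and their part in the cDC2 share was not tested. Of dendritic cells gated with Flt3, cDC2 were 21.8%, 15.3%, 12.7% and 9.80%, so that the ratio between the group means went from 3.62 to 1.65.

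**Figure D4:**
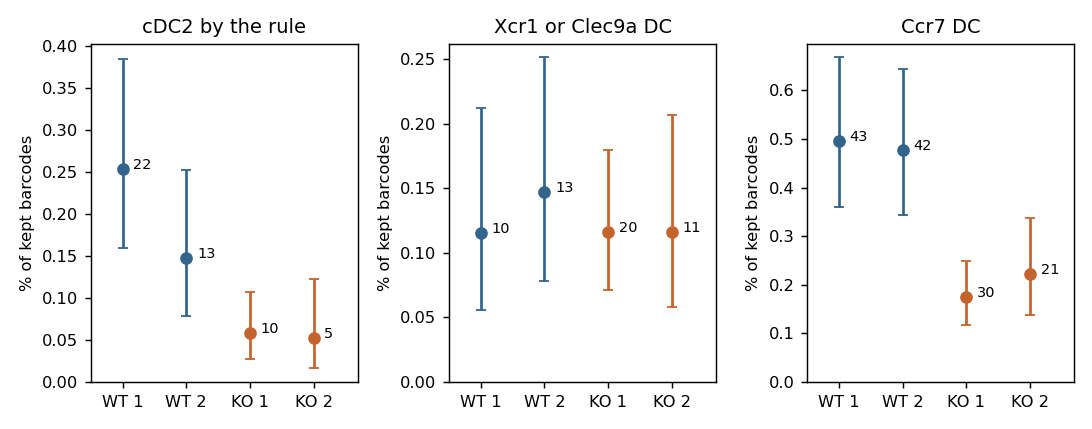
Share of kept barcodes in percent for cDC2, for dendritic cells with Xcr1 or Clec9a and for Ccr7-positive dendritic cells, by library, with 95% exact Clopper-Pearson intervals and the number of cells beside each point. The cDC2 share was 0.254% and 0.147% in WT and 0.0581% and 0.0526% in KO, while the Xcr1 or Clec9a share overlapped between genotypes.

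Within the cDC2, 2 of 1564 genes tested changed between KO and WT, Wfdc17 and Bin2, and both fell (0.128% of the genes tested). In 18.2% of the genes tested both KO libraries were above both WT libraries, and in 13.9% both were below. At an unadjusted p under 0.05 there were 81 genes, 41 higher and 40 lower. DESeq2 called 0 genes. Without KO 1 the count was 28 and without KO 2 it was 22, of more genes tested (2450 and 2568). Without WT 1 it was 5.

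Wfdc17 encodes a small secreted protein of activated macrophages (chromosome 11, 83703991 to 83706268, plus strand, mm10). It had 1013, 923, 358 and 252 CPM in WT 1, WT 2, KO 1 and KO 2. Both KO libraries were lower, and the median UMIs per cell were 11, 7, 2.5 and 2, with a UMI in 46 of the 50 cells. The log2 change was -1.70 ± 0.35 (SE, n = 2 libraries per group) and the adjusted p was 0.0015 in edgeR. It was -1.68 with an adjusted p of 0.18 in DESeq2, and in edgeR the call was lost without WT 1 (adjusted p 0.239) and without WT 2 (adjusted p 0.246). With cells that carry Fcgr1 also admitted, it was -0.88 with an adjusted p of 0.423 in edgeR. The call was also lost with cells thinned to 3000 UMIs and without cells of 3 or more C1q UMIs. It was lost as well without cells above 2 times the median UMIs.

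In macrophages of the same libraries Wfdc17 had 680, 539, 1475 and 1379 CPM and rose by 1.39 ± 0.13 on the log2 scale (SE, n = 2 libraries per group; adjusted p 0.00063 in edgeR). The change in cDC2 minus that in macrophages was -3.24 ± 0.31, with an adjusted p of 6.2e-22 in edgeR's test of the interaction. It stayed negative under all 8 alternatives, from -3.51 to -2.88, and passed in 5 of them. In cDC1, Wfdc17 had 218, 165, 122 and 103 CPM, and its log2 change was -0.66 ± 0.39 (SE, n = 2), which did not pass.

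Bin2, the gene of a membrane-bending protein of blood cells, lies on chromosome 15 (100641077 to 100669553, minus strand, mm10). It had 39, 16, 2 and 0 UMIs in WT 1, WT 2, KO 1 and KO 2, or 169, 126, 26.5 and 0 CPM, and a count of 0 in KO 2 allows up to 44.5 CPM. Both KO libraries were lower. With UMIs pooled the WT level was 11.0 times the KO level (95% exact interval 2.90 to 93.0, counting error only). The fitted log2 change was -3.37 ± 0.78 with an adjusted p of 0.0118 in edgeR (n = 2 libraries per group). The call was lost without WT 2 (adjusted p 1.00) and without KO 2 (adjusted p 0.166), and the gene was under the filter without WT 1. With cells that carry Fcgr1 also admitted the log2 change was -1.29 (adjusted p 0.526), and with at least 2 UMIs of Cd209a asked for the call was lost as well (adjusted p 0.619). In macrophages it fell by 0.55 ± 0.11 on the log2 scale (adjusted p 0.0179 in edgeR), and the difference between the populations had an adjusted p of 0.071.

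The next genes in order of p, named after their values were seen, were Clec7a, Ly6a and Plet1, each with an adjusted p of 0.0568 in edgeR. Clec7a, the beta-glucan receptor Dectin-1, had 320, 245, 596 and 891 CPM and a log2 change of 1.35 ± 0.35 (SE, n = 2 libraries per group). Ly6a, an interferon-induced surface protein, had 342, 418, 887 and 980 CPM and a log2 change of 1.27 ± 0.33. Plet1 had 346, 229, 596 and 891 CPM and a log2 change of 1.32 ± 0.35. Cd300c2, a myeloid surface receptor, had 216, 245, 66.2 and 44.5 CPM and a log2 change of -2.05 ± 0.56, with an adjusted p of 0.0611 in edgeR. Clec7a, Ly6a and Plet1 were higher in both KO libraries and passed with median-ratio or total-count scaling. Single cells held much of these genes in the KO libraries. The highest cell had 55.6% and 51.7% of the Clec7a UMIs in KO 1 and KO 2, against 20.3% and 25.8% in WT 1 and WT 2. It had 49.3% and 57.6% of the Ly6a UMIs and 51.1% and 56.7% of the Plet1 UMIs in KO 1 and KO 2.

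Some markers of other cells were higher in KO and others lower, but none passed the test. Of the 14 macrophage markers 5 were tested and 0 passed, with a median log2 change of 0.75 against -0.03 over all genes tested. In both KO libraries 3 of the 5 were higher, as were 18.2% of all genes tested. The change was 0.73 for 1 T cell marker and 0.39 for 1 NK marker, and the median was 0.25 for 3 plasmacytoid markers. It was 0.006 for 4 monocyte markers, -0.26 for 4 markers of monocyte-derived dendritic cells and -1.08 for 2 cDC1 markers. Apoe, a lipid carrier abundant in macrophages, had 117, 158, 477 and 297 CPM in cDC2, a log2 change of 1.48 ± 0.41 and an adjusted p of 0.0724 in edgeR (n = 2 libraries per group). With cells that carry Fcgr1 also admitted, its log2 change was -1.04. In macrophages Apoe stood at 9308 CPM and in T cells at 1036. The part of these markers in the changes of cDC2 was not tested.

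None of the MHC class II genes passed the test between KO and WT in cDC2. Cd74 had 25259, 22374, 16591 and 18125 CPM in WT 1, WT 2, KO 1 and KO 2, and it was the gene with most UMIs in the cDC2, mitochondrial and ribosomal protein genes aside. H2-Aa had 11623, 10579, 7587 and 9738 CPM, H2-Ab1 had 11554, 8836, 7971 and 9634 CPM, and H2-Eb1 had 9974, 7826, 5641 and 7110 CPM. Both KO libraries were below both WT libraries for Cd74, H2-Aa and H2-Eb1, as for 13.9% of all genes tested, and the groups overlapped for H2-Ab1. The log2 changes were -0.49 ± 0.21, -0.39 ± 0.22, -0.24 ± 0.22 and -0.51 ± 0.22 for Cd74, H2-Aa, H2-Ab1 and H2-Eb1 (SE, n = 2 libraries per group), with adjusted p of 0.712 to 0.995 in edgeR. Of the 14 genes listed for class II presentation, 13 were tested, 0 passed and 11 had a negative change, with a median of -0.39 against -0.03 over all genes tested. Of all 1564 genes tested, 827 had a negative change. In edgeR, Cd74 passed without WT 1 (-0.45, adjusted p 0.0408) and without WT 2 (-0.59, adjusted p 0.00186), where 1 WT library gives no spread of its own, and with at least 2 UMIs of Cd209a asked for (-0.66, adjusted p 0.0291). H2-Eb1 passed without WT 2 (-0.69, adjusted p 0.0165) and with at least 2 UMIs of Cd209a (-0.82, adjusted p 0.0291). With the 7 cells of little MHC class II left out, all 4 changes were nearer to 0, at -0.33 for Cd74, -0.21 for H2-Aa, -0.065 for H2-Ab1 and -0.33 for H2-Eb1, each with an adjusted p of 0.999 in edgeR.

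None of the MHC class I genes passed either. H2-K1 had 1087, 1057, 1284 and 965 CPM in WT 1, WT 2, KO 1 and KO 2, H2-D1 had 1740, 2035, 2847 and 1796 CPM, and B2m, the light chain of class I, had 1649, 1972, 2410 and 1440 CPM. The groups overlapped for all 3. The log2 changes were 0.03 ± 0.29, 0.26 ± 0.25 and 0.05 ± 0.26 (SE, n = 2 libraries per group), each with an adjusted p of 0.995 in edgeR. Without KO 1 all 3 were negative, at -0.23, -0.15 and -0.41. Of the 17 genes listed for class I presentation, 13 were tested, 0 passed and all 13 tested had a positive change, with a median of 0.19 against -0.03 over all genes tested. Of all 1564 genes tested, 737 had a positive change. H2-K1 and H2-D1 are close paralogues, so reads may be split between them.

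In macrophages of the same libraries the class I genes were higher in KO. H2-K1 had 842, 1021, 2442 and 1976 CPM there and rose by 1.40 ± 0.16 on the log2 scale, H2-D1 rose by 1.40 ± 0.18 and B2m by 1.08 ± 0.15 (adjusted p 0.00222, 0.00367 and 0.00351 in edgeR, n = 2 libraries per group). Macrophage sums were far deeper than cDC2 sums, and 1431 of 12223 genes (11.7%) passed there. Cd74 had 4288, 6883, 7494 and 7912 CPM in macrophages, with a log2 change of 0.61 ± 0.25 that did not pass.

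The test of the difference itself called 58 of 11567 genes (0.501%), of which 5 (0.0432%) changed more upward in cDC2 and 53 (0.458%) more downward. In cDC2 alone 1564 genes had the counts to be tested, so most of the 11567 had few UMIs in cDC2. The share over all genes takes these in and is not a matched background for abundant genes. The change in cDC2 minus that in macrophages was -1.53 ± 0.27 for H2-K1, -1.33 ± 0.25 for H2-D1 and -1.21 ± 0.25 for B2m, with adjusted p of 1.4e-05, 1.0e-04 and 0.000588 in edgeR. It was -1.30 ± 0.21 for Cd74, -1.20 ± 0.23 for H2-Aa, -1.17 ± 0.23 for H2-Eb1, -1.04 ± 0.23 for H2-Ab1 and -1.63 ± 0.25 for Ctss, the lysosomal protease that trims the invariant chain. Of the 17 class I genes 3 passed and of the 14 class II genes 5 passed, with median differences of -0.89 and -0.77. The median over all genes tested was -0.18 with TMM and -0.08 with median-ratio scaling, and each difference includes this shift.

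The calls depended on the libraries and the method. These 8 genes all had a negative difference under all 8 alternatives. The cDC2 rule asked for no UMI of Fcgr1 and the macrophage gate asked for Fcgr1, so the populations were chosen in opposite ways on this gene. None of the alternatives of this test admitted cDC2 with Fcgr1, and the part of this choice in the differences was not tested. The count over all genes was 1 without WT 1, 0 without WT 2, 52 without KO 1 and 34 without KO 2. It was 5 without the library block. With macrophage sums thinned to the UMIs of the cDC2 it was 3 of 2045 (0.147%), which left Wfdc17, Ctss and Fth1, the ferritin heavy chain. In limma, on the within-library differences of log2(CPM + 10), it was 0, with 1003 genes at an unadjusted p under 0.05.

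**Figure D5:**
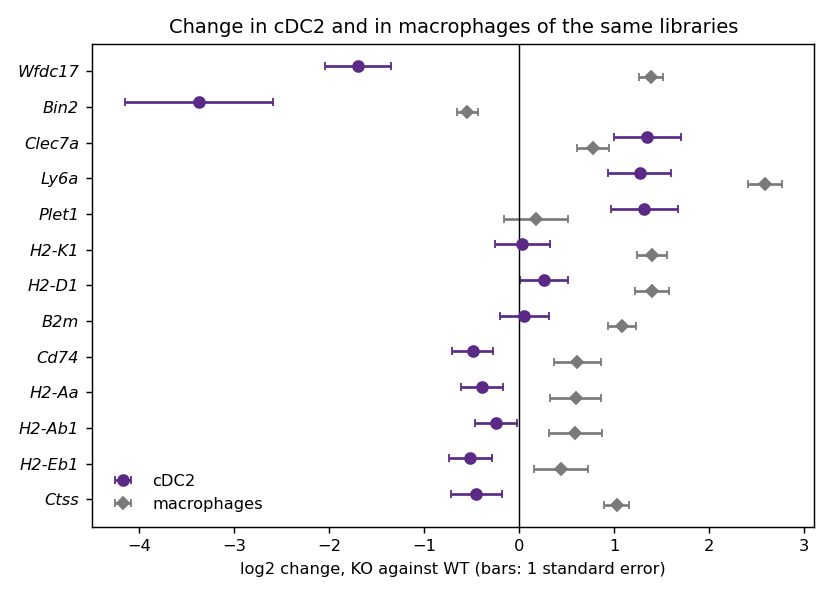
Log2 change of KO against WT with 1 standard error for 13 genes, in cDC2 (purple circles) and in macrophages of the same libraries (grey diamonds). Wfdc17 stood at -1.70 in cDC2 and at 1.39 in macrophages, and the class I genes H2-K1, H2-D1 and B2m stood at 0.03 to 0.26 in cDC2 and at 1.08 to 1.40 in macrophages.

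Of 20 lysosomal genes, 15 were tested in cDC2 and 0 passed, with a median change of -0.43. In the test of the difference from macrophages 5 of 20 passed (Ctss, which is also 1 of the 5 class II genes, and Ctsd, Ctsc, Ctsl and Hexa). Over all genes tested the share was 0.501%, which takes in many genes with few UMIs in cDC2, so these shares are not matched for level. Ctsl passed in 0 of the 8 alternatives, and Ctsc, Ctsd and Hexa in 1 each. Of 24 interferon gamma response genes 6 had the counts to be tested in cDC2 and 0 passed. Their median change was 0.56 and 5 of the 6 were positive, against a median of -0.03 over all genes tested. The 24 genes summed to 1035, 1720, 4105 and 787 CPM in WT 1, WT 2, KO 1 and KO 2, so KO 1 was highest and KO 2 lowest. Of 24 type I interferon genes 2 were tested in cDC2 and 0 passed, both with a positive change (median 0.96). One of them, Ifitm3, a membrane protein that restricts viruses, differed from macrophages, at -1.14 ± 0.25 with an adjusted p of 0.00215 in edgeR. Mgl2 differed the other way, at 1.11 ± 0.29 with an adjusted p of 0.0347 in edgeR, and passed in 1 of 8 alternatives. The highest cell held 104 of the 138 Mgl2 UMIs of KO 2. Its log2 change in cDC2 was 0.50 ± 0.30 and it turned to -0.51 without KO 2.

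No gene passed the test of a difference between cDC2 and cDC1 in the change of KO against WT. Of 2753 genes tested 0 passed in edgeR (0%), with 108 at an unadjusted p under 0.05, and 2, 4, 15 and 17 passed when WT 1, WT 2, KO 1 or KO 2 was left out. In cDC1 alone 5 of 2434 genes passed (0.205%), among them Mgl2, which rose by 1.94 ± 0.42 on the log2 scale (adjusted p 0.0219 in edgeR, n = 2 libraries per group), and in Ccr7-positive dendritic cells 2 of 3041 passed (0.0658%). The cDC1 values of H2-K1, 471, 1069, 951 and 1479 CPM in WT 1, WT 2, KO 1 and KO 2, overlapped between the groups, as they did in cDC2.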

How the data were processed

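Single-cell RNA of CD45-positive cells from MC38 tumours was measured with a 10x 3' kit in 2 WT and 2 KO libraries. The deposited values are whole UMI counts per gene and barcode that the authors made with Cell Ranger, version 5.0.0 per the file headers. The submitters' processing notes give 5.0.1, mm10 and Seurat 3.15, with no role. Libraries held 94213071, 112472244, 130466357 and 104900918 UMIs (WT 1, WT 2, KO 1, KO 2) over 22620 genes.

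UMIs of the cDC2 were summed per library and tested with edgeR 4.0.16 (R 4.3.3; filterByExpr, TMM, robust quasi-likelihood fit, adjusted p under 0.05), with limma 3.58.1 and DESeq2 1.42.0 as alternatives. Differences between populations were interaction terms with library as a block. Shares were compared by two-sided exact permutation tests in scipy 1.17.1. Scrublet, run through scanpy 1.11.5, called 1, 3, 0 and 3 barcodes, and doublets stayed in. Fits were tested on simulated data. The targeted gene and 2 markers are not reported here.

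The members, gene lists and tests were chosen with earlier results of these data known. Named were the genes that passed in cDC2, up to 12 in each direction, whose libraries did not overlap between genotypes and whose higher group had a mean of at least 20 CPM, then the members of the lists that passed, and the MHC chains, chemokines and co-stimulatory genes that define a list, whatever their test. Clec7a, Ly6a, Plet1, Cd300c2, Apoe, Ctss, Ifitm1 and Fth1 were named after their values were seen, as was Wfdc17 for the difference from macrophages. The labels did not say that replicate numbers pair WT with KO libraries, and the main tests did not pair them. Alternatives changed the scaling, the low-count filter, the tool, the mitochondrial limit, the rule and the libraries used. Intervals cover counting error only.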

Additional observations from a re-analysis of the deposited data

Results flagged for a closer look

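The change of KO against WT differed between cDC2 and macrophages of the same libraries in 58 genes by the interaction test, and those of them that are named are given here as the log2 change in cDC2 minus that in macrophages. Among MHC genes it was -1.53 for H2-K1, -1.33 for H2-D1, -1.21 for B2m, -1.30 for Cd74, -1.20 for H2-Aa, -1.17 for H2-Eb1 and -1.04 for H2-Ab1. Among lysosomal enzymes it was -1.63 for Ctss, -1.75 for Ctsd, -1.38 for Ctsc, -1.72 for Ctsl and -2.00 for Hexa. Among interferon-induced genes it was -1.90 for Ifitm1, -1.14 for Ifitm3 and -1.46 for Ly6a.

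Leaving out 1 library moved several of these by over 1.5 times. Without WT 1, H2-Aa was -0.77, H2-Eb1 -0.62, H2-Ab1 -0.47 and Ctsc -2.10. Without WT 2, H2-Ab1 was -1.61, Ctsc -0.62 and Ctsd -0.996. Hexa was -1.23 without KO 1 and -3.36 without KO 2.

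The secreted factors Wfdc17, Ccl6 and Cxcl2 differed by -3.24, -1.92 and -1.58, and the myeloid receptor gene Cd300c2 by -2.73. The ferritin gene Fth1, the phosphatase gene Dusp1 and the glycolytic gene Pgk1 differed by -1.45, -1.56 and -1.37. Klrd1, a receptor chain of natural killer cells, differed by -1.84. The replication genes Mcm6 and Mcm3 differed the other way, by 2.95 and 2.33, as did Mgl2, by 1.11. Without KO 2, Mcm3 was 0.53 and Mcm6 was 1.92, and without WT 1 Mcm6 was 14.6, none of which passed. Cxcl2 was -0.94 without KO 1 and -2.60 without KO 2, Dusp1 was -0.68 and -3.05, Klrd1 was -1.11 without WT 1 and Pgk1 was -0.85 without WT 2. For the Mcm genes, 3 cDC2 of WT 1, 2 of WT 2, 0 of KO 1 and 3 of KO 2 had at least 50 UMIs of cell cycle genes, and the part of these cells in the difference was not tested.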

How the results depend on the processing

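The count of genes changed in cDC2 was 2. It was 5 with median-ratio scaling, 5 with total counts, 4 with no low-count filter, 0 with DESeq2 (21 genes at an unadjusted p under 0.05), 7 with mitochondrial UMIs at most 10%, 0 without cells above 2 times the median UMIs, 1 without the highest Scrublet scores, 0 with cells thinned to 3000 UMIs and 0 without cells of 3 or more C1q UMIs. Leaving out each library in turn gave 2 to 28. Leaving out cells under 1% MHC class II UMIs, chosen after seeing the data, gave 1. With a replicate block the count was 2 and Wfdc17 was -1.71. The deviations of same-numbered libraries from their group means had an r of -0.01. With 2 libraries per group this cannot show whether the numbers pair the libraries. The block changed no other call. The count of differences from macrophages, 58, was 5 with no library block and 0 to 52 with a library left out. With alternatives chosen after seeing the data it was 3 on thinned macrophage sums and 0 in limma (1003 genes at an unadjusted p under 0.05). The count of differences from cDC1 was 2 to 17 with a library left out. The cDC2 share was lower in both KO libraries under the 9 settings that keep all libraries, with ratios of 1.65 to 4.43, and the ratio was 2.66 to 4.59 with a library left out (1.91 to 4.24 at equal depth).

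Some named genes changed sign. H2-K1 was -0.11 with no low-count filter, -0.079 with Cd209a at 2 UMIs, -0.17 thinned, and -0.23 to 0.15 with a library left out. B2m was -0.092 with no low-count filter and -0.41 to 0.30 with a library left out, and H2-D1 was -0.15 to 0.48. Ccl17 was -2.74 with Cd209a at 2 UMIs, -2.86 without C1q cells and -3.14 to 2.29 with a library left out. Mgl2 was -0.19 with Fcgr1 not used, -0.42 with Cd209a at 2 UMIs, -1.24 without C1q cells and -0.51 to 1.02 with a library left out. Plet1 was -0.046 without C1q cells and Apoe -1.04 with Fcgr1 not used. The difference of Klrd1 was 2.33 on thinned macrophage sums. The cause was not tested. At this depth 1564 genes could be tested in cDC2.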
